A study of Homo sapiens with 12 samples.

Results

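The genes followed here are 10 known targets of the transcription factor p53 (CDKN1A, MDM2, BBC3, BAX, SESN1, ZMAT3, RRM2B, XPC, FDXR and PHLDA3). They were taken by symbol from a table of 36459 genes. All 10 were present, and all 10 were among the 14209 genes with enough counts to be tested. The 12 libraries were poly-A RNA-seq of HEK293, a human embryonic kidney line, in 4 groups of 3. The groups were cells given oleic acid together with ferric ammonium citrate (FAC, an iron salt), FAC alone, oleic acid alone, and vehicle. The study used FAC to bring on ferroptosis, an iron-dependent form of cell death driven by lipid peroxidation, and asked how oleic acid, a monounsaturated fatty acid, bears on it. Doses and exposure times were not given in the sources used here.

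p53 is a stress-activated transcription factor. When it is stabilised, its targets stop the cell cycle (CDKN1A), start mitochondrial cell death (BBC3, BAX), repair or supply DNA (XPC, RRM2B), damp growth and oxidative signalling (SESN1, PHLDA3), and turn p53 itself over (MDM2). FDXR belongs to the mitochondrial electron transfer chain that serves iron-sulfur cluster assembly, and has been linked to ferroptosis. As a model HEK293 has a known limit: it carries adenoviral E1 genes, and the E1B protein binds p53 and restrains it. All 4 groups share this background, so no group here has p53 free of it.

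Library totals ran between 14098216 and 18717397 estimated counts. TFRC, the transferrin receptor whose mRNA falls when iron is plentiful, lay between 13.3 and 22.1 CPM (counts scaled to a fixed library total) in the 6 libraries given FAC, against 57.8 to 133.6 CPM in the 6 without it, so the libraries followed their FAC labels. Markers of embryonic kidney and HEK293 cells summed to 851 to 1902 CPM, and 8 of 9 passed the filter on low counts. Most of that sum was VIM, at 583 to 1427 CPM. PAX2 lay at 4.30 to 7.15 CPM, SIX2 at 7.36 to 19.2 CPM and LHX1 at 12.9 to 22.2 CPM, and PAX8 did not pass. The fibroblast, epithelial, endothelial, blood and hepatocyte markers summed to at most 18.9, 15.4, 1.79, 1.89 and 0.397 CPM. In both groups given oleic acid, the third library stood apart. Long genes read low there relative to the group (r of -0.39 with FAC and -0.52 without it between deviation and transcript length across genes, against -0.23 to 0.36 in the others). Mitochondrial mRNA made up 12.1% of the third library given both agents, beside 3.33% to 7.50% of the other 11. Where leaving out both of them ended a gene's call, that is said beside the call.

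Per unit of length, BAX was the most abundant of the 10 in vehicle cells, at 233 ± 35.1 TPM (counts scaled for transcript length and library total; SD, n = 3). MDM2 followed at 116 ± 10.7 TPM. CDKN1A (63.3 ± 12.4 TPM) and SESN1 (58.4 ± 1.95 TPM) came next and did not differ beyond their spread. PHLDA3 (31.6 ± 1.87 TPM), BBC3 (28.5 ± 2.70 TPM) and FDXR (27.0 ± 3.98 TPM) formed a lower tier whose ranges of mean ± SD overlapped. XPC (17.2 ± 2.23 TPM), RRM2B (15.9 ± 2.23 TPM) and ZMAT3 (13.5 ± 1.70 TPM) were lowest, again within their spread of each other.

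BBC3 was the member that moved most. It encodes PUMA, a BH3-only protein that triggers BAX-dependent permeabilisation of mitochondria. BBC3 stood at 51.6, 52.9 and 55.6 CPM in oleic acid + FAC cells and at 46.6, 48.4 and 45.8 CPM in FAC cells. It stood at 25.7, 19.5 and 34.7 CPM in oleic acid cells and at 26.3, 26.7 and 22.6 CPM in vehicle cells. Every library given FAC lay above every library without it, and the nearest values across that gap were 45.8 and 34.7 CPM.

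BBC3 rose 1.86-fold in FAC cells against vehicle cells (log2 fold change 0.90, SE 0.17, adjusted p = 0.0209 by edgeR's quasi-likelihood test) and 2.01-fold in oleic acid + FAC cells against oleic acid cells (log2 fold change 1.01, SE 0.17, edgeR adjusted p = 0.0103). Against vehicle, cells given both rose 2.12-fold (log2 fold change 1.08, SE 0.17, edgeR adjusted p = 0.00598). Averaged over both oleic acid states the FAC effect was 0.95 (SE 0.12, edgeR adjusted p = 4.77e-04), a 1.94-fold rise. Here and below a gene counts as called when its p, adjusted over all 14209 genes, is under 0.05. Calls were sparse in the single comparisons. FAC against vehicle called 1 of the 10 members, BBC3, beside 1.19% of all genes. Oleic acid + FAC against oleic acid called 1 member, BBC3, beside 2.21% of all genes (314), or 2, BBC3 and PHLDA3, beside 740 genes with the replicate number as a block, and oleic acid + FAC against vehicle called 1 member, BBC3, beside 3.07%.

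The single comparisons rested on few libraries. BBC3's call against vehicle was lost when any 1 of the 6 FAC or vehicle libraries was left out. In those fits BBC3's edgeR adjusted p lay between 0.0732 and 0.135, while its log2 fold change stayed between 0.82 and 0.94. Its call against oleic acid was lost without the first oleic acid library (adjusted p = 0.0562), without the second oleic acid + FAC library (adjusted p = 0.0504), and when only those 2 groups were fitted (adjusted p = 0.145; over its 22 alternatives the adjusted p ran between 3.54e-06 and 0.145). The call of both agents against vehicle was lost without the third vehicle library (adjusted p = 0.0526, in a range of 2.76e-07 to 0.0526). The averaged effect was called in all 21 alternatives, with adjusted p between 8.16e-12 and 0.00272.

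**Figure D1:**
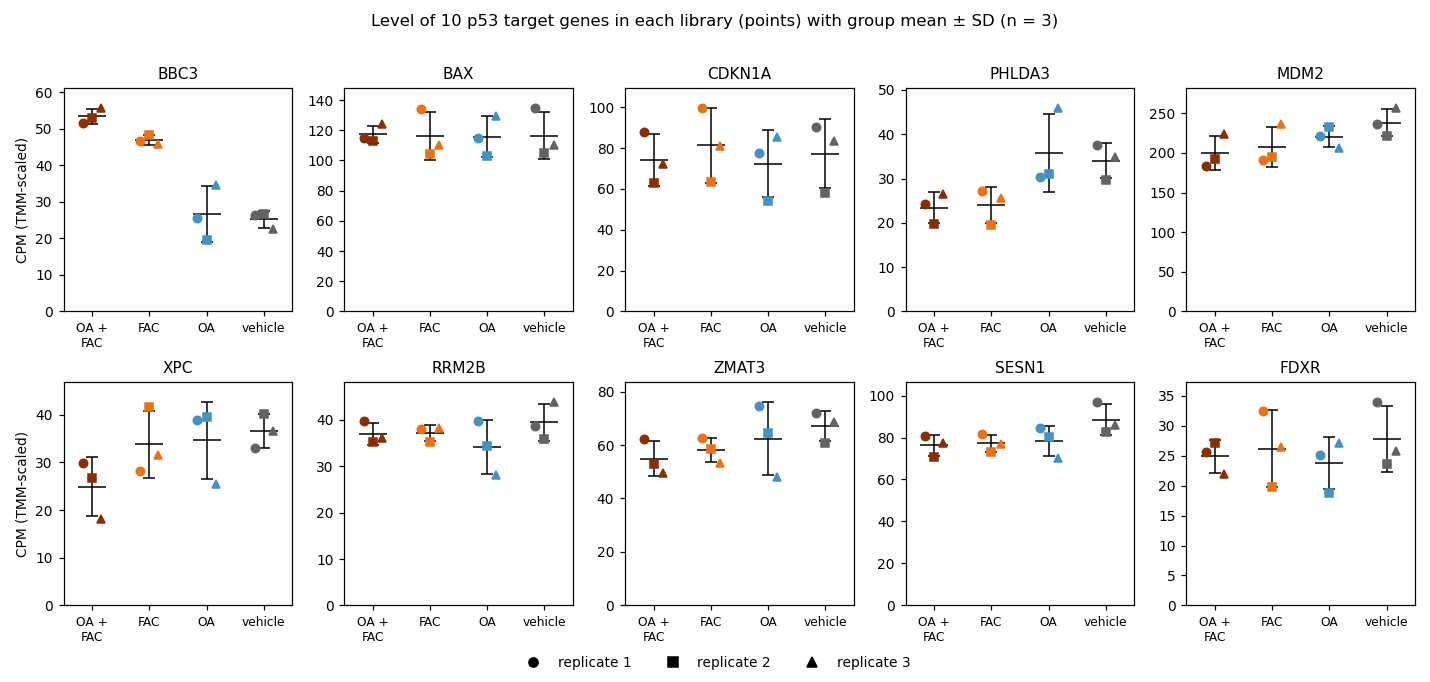
CPM of the 10 genes in each library (TMM-scaled), one panel a gene, with points for the 3 replicates of each group and a bar with whiskers for the mean ± SD (OA, oleic acid). BBC3 is at 45.8 CPM or more in all 6 libraries given FAC and at 34.7 CPM or less in the other 6, PHLDA3 is lower in the FAC libraries, and the other 8 panels overlap between FAC and non-FAC libraries.

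BBC3 in these libraries was mostly 1 transcript. BBC3-202, which starts at the upstream end of the gene on chromosome 19 (minus strand, position 47232766 in GRCh38), was at 44.2, 45.1 and 45.0 CPM in oleic acid + FAC cells and at 38.2, 37.8 and 32.5 CPM in FAC cells. It was at 15.6, 12.3 and 23.8 CPM in oleic acid cells and at 19.4, 22.0 and 18.1 CPM in vehicle cells. The groups with and without FAC did not overlap. In the fit over 51464 transcripts BBC3-202 was the 1 of 45 tested member transcripts called for the averaged FAC effect (log2 fold change 1.12, SE 0.15, edgeR adjusted p = 0.0207), beside 0.299% of all transcripts. That call was lost without a filter on low counts and in 9 of the 12 fits that left out 1 library. It held without the second or the third oleic acid library or the third oleic acid + FAC library. BBC3-203, which starts at 47231194, had a log2 fold change of 0.71 (SE 0.26, edgeR adjusted p = 0.481). The 3 transcripts from the upstream start held 70.6% to 84.7% of the gene's counts in all 12 libraries. The split of counts between transcripts of a gene is itself an estimate, whose uncertainty was not given. BBC3-201, from the same start as BBC3-202, was assigned 69, 59 and 20 counts in the oleic acid libraries and 0 to 3 in the others. The BBC3-202 values leave those counts out, and the averaged FAC effect on the gene total was 0.95.

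The letters just upstream of that start are shown because BBC3 was the member that rose. They are RefSeq sequence (GRCh38.p14), minus strand, chr19:47232767-47232917, and end 1 base before the BBC3-202 start.
BBC3: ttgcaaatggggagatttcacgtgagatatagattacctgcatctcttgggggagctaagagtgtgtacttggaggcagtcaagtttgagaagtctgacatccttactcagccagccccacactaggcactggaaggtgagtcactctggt
p53 binds pairs of a 10-base half-site. The p53 half-site consensus, whose pattern is the same on both strands, was looked for in windows of 250 bases before to 50 after each RefSeq start, either as a full match or as a pair with at most 2 mismatches over 20 bases and a spacer of at most 13 bases, with the C and G of each core intact. BBC3's window, set by the RefSeq start at 47232667, held neither. Of the bases upstream of the BBC3-202 start it covered only the 151 shown, and the BBC3-203 start at 47231194 had no window. A full half-site was in 6.63% of all 35116 windows and a pair in 2.93%. The 8 members with windows had 15 windows, of which 2 held a full half-site (SESN1 and FDXR) and 3 a pair (FDXR and 2 overlapping windows of MDM2). No match says only that these letters are not in this window.

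PHLDA3, the other member called, encodes a pleckstrin-homology protein that competes with the kinase AKT for membrane lipids and so restrains it. It was at 24.1, 19.7 and 26.5 CPM in oleic acid + FAC cells and at 27.2, 19.5 and 25.6 CPM in FAC cells. It was at 30.2, 31.0 and 45.9 CPM in oleic acid cells and at 37.5, 29.7 and 35.0 CPM in vehicle cells. All 6 libraries with FAC lay below all 6 without it, the highest of the first at 27.2 CPM and the lowest of the second at 29.7 CPM. PHLDA3 thus moved opposite to BBC3.

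PHLDA3 fell on average over both oleic acid states, with a log2 fold change of -0.55 (SE 0.13, edgeR adjusted p = 0.0209), to 0.68 of the level without FAC. Its single comparisons were of like size and not called: -0.50 for FAC against vehicle (edgeR adjusted p = 0.271), -0.60 for oleic acid + FAC against oleic acid (0.123) and -0.54 for oleic acid + FAC against vehicle (0.122). Other fits did call the comparisons of cells given both agents. With the replicate number as a block the adjusted p was 0.0256 against oleic acid and 0.0276 against vehicle, and with each library's length trend removed it was 0.0431 and 0.0443. Without the third library of both groups given oleic acid, PHLDA3 was called against vehicle at -0.63 (adjusted p = 0.0333), and without that of the oleic acid group alone at -0.54 (adjusted p = 0.0493). With the block and the length correction together, PHLDA3 was called in FAC cells against vehicle cells as well (-0.47, adjusted p = 0.0191). The averaged call was lost without the second oleic acid + FAC library (adjusted p = 0.0591) and without the third vehicle library (0.0559), in a range of 4.17e-04 to 0.0591 over 21 alternatives. The averaged comparison thus called 2 of 10 members, 1 in each direction, beside 8.76% of all genes (3.27% higher, 5.48% lower). In bulk RNA, fewer cells that express a gene and less of its RNA per cell cannot be told apart.

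**Figure D2:**
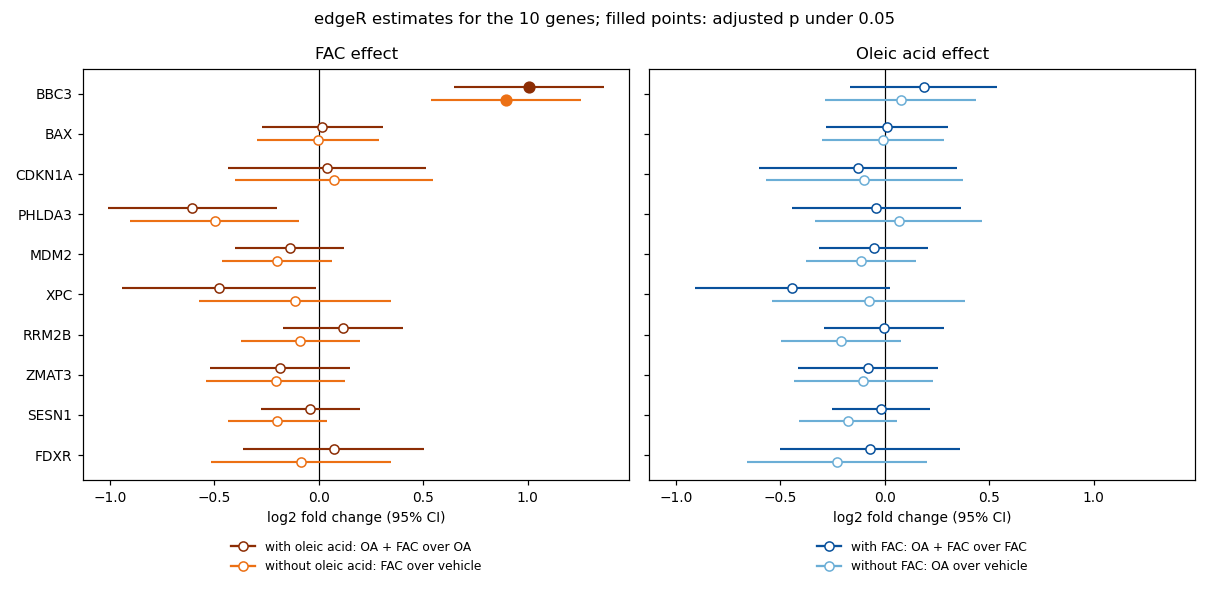
Log2 fold change with its 95% confidence interval from edgeR for each gene, for FAC with and without oleic acid (left) and for oleic acid with and without FAC (right); filled points passed an adjusted p under 0.05. BBC3 lies at 1.01 and 0.90 on the left and PHLDA3 at -0.60 and -0.50, while no gene is filled on the right.

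The arrest gene CDKN1A encodes p21, the cyclin-dependent kinase inhibitor that is the best-known p53 target. It was at 87.7, 62.7 and 72.3 CPM in oleic acid + FAC cells, at 99.5, 63.1 and 81.2 CPM in FAC cells, at 77.5, 53.8 and 85.3 CPM in oleic acid cells, and at 90.2, 57.9 and 83.5 CPM in vehicle cells. All 4 groups overlapped, and in each the second library was the lowest, by 0.23 to 0.40 below its group mean in log2 CPM. The averaged FAC effect was 0.06 (95% confidence interval -0.28 to 0.39, edgeR adjusted p = 0.867). The spread within groups (SD 0.32 in log2 CPM, against a median of 0.23 over all tested genes) exceeded the range of the 4 group means, 0.17. A rise of up to 1.31-fold thus lies within the interval. Neither the SD nor the interval takes the replicate number into account.

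BAX, the pore-forming protein on which PUMA acts, showed the smallest movement. It was at 114.9, 113.0 and 124.0 CPM in oleic acid + FAC cells, at 134.4, 104.3 and 110.4 CPM in FAC cells, at 114.9, 102.9 and 129.8 CPM in oleic acid cells, and at 134.6, 105.1 and 109.9 CPM in vehicle cells. The 4 group means lay within 0.02 of each other in log2 CPM, against a median range of 0.35 over all tested genes. The averaged FAC effect was 0.01 (95% confidence interval -0.20 to 0.21, edgeR adjusted p = 0.975). With each library's trend with transcript length removed, BAX stood at -0.24 in oleic acid + FAC cells against vehicle cells (adjusted p = 0.232), and with the replicate number as a block as well at -0.25 (adjusted p = 0.0341).

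MDM2 encodes the ubiquitin ligase that marks p53 for degradation and is itself induced by p53 from an internal promoter. It was at 183.6, 192.2 and 224.6 CPM in oleic acid + FAC cells, at 191.0, 195.2 and 236.6 CPM in FAC cells, at 220.9, 233.4 and 206.9 CPM in oleic acid cells, and at 237.0, 222.0 and 256.5 CPM in vehicle cells. FAC and vehicle overlapped. The averaged FAC effect was -0.17 (95% confidence interval -0.36 to 0.02, edgeR adjusted p = 0.254), so a rise of more than 0.02 lies outside the interval. Counts assigned to MDM2 overlap a processed pseudogene on the same strand (439 exonic bases) and 2 genes on the opposite strand, and the strand setting of the counting was not given in the sources used here.

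MDM2's internal promoter, in its first intron, holds the decamer pair. The window is shown because it is the classic p53-responsive element and the start lies where transcripts of this gene can be separated. It is RefSeq sequence (GRCh38.p14), plus strand, chr12:68808898-68808967, with the decamers in capitals, 2 mismatches over 20 bases and no spacer.
MDM2: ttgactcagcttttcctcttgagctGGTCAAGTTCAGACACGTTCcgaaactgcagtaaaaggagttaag
Transcripts that start at or just downstream of this promoter (22, from 68809002 to 68809227) held 18.0% and 15.2% of MDM2's estimated counts in the first and second oleic acid + FAC libraries, and 21.4%, 21.5% and 13.8% in the FAC libraries. They held 22.8% in both the first and second oleic acid libraries, and 13.1%, 23.6% and 20.0% in the vehicle libraries. The FAC and vehicle ranges overlapped. The third library given both agents had a share of 0.0949% (3 counts), and the third given oleic acid alone one of 0.578% (16 counts). Those are the libraries that stand apart, whose part in this was not tested, and transcripts that start further inside the gene took 20.0% and 16.6% there, against 5.17% to 9.84% in the other 10. Transcripts of the first promoter (7, from 68808176 to 68808464) held 80.0% and 82.8% there, and 70.1% to 79.5% in the others. No MDM2 transcript was called in any comparison.

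**Figure D3:**
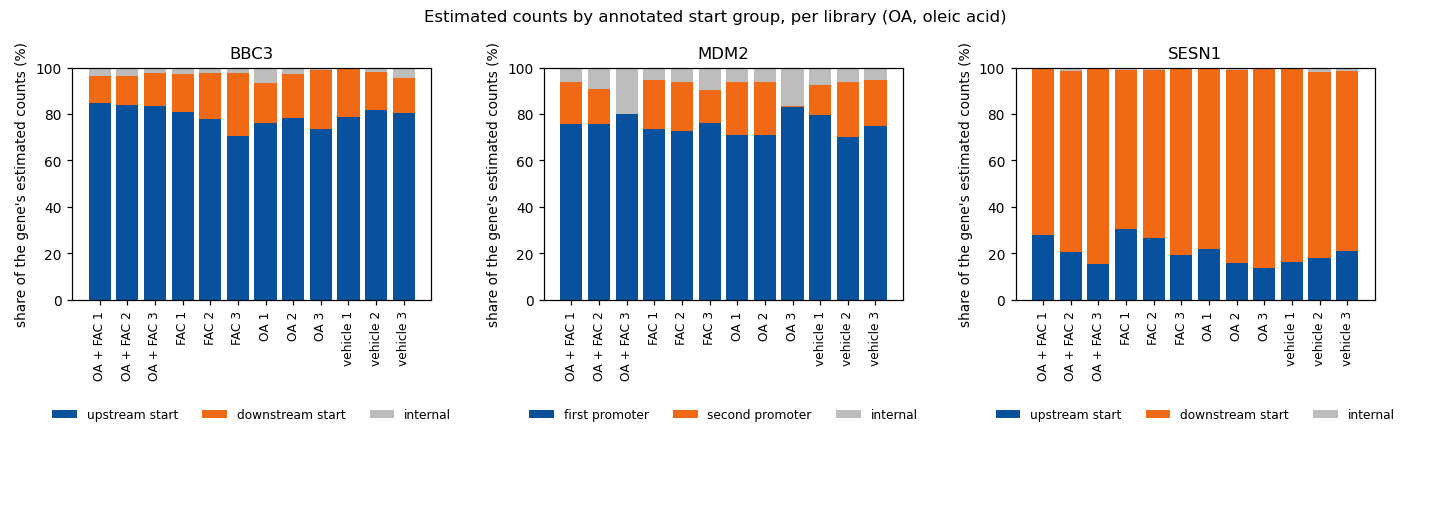
Share of the estimated counts of BBC3, MDM2 and SESN1 assigned to each annotated start group in every library, as stacked bars adding to 100% (OA, oleic acid). The second-promoter share of MDM2 is 13.1% to 23.6% in 10 libraries and 0.0949% and 0.578% in the third library of the oleic acid + FAC group and of the oleic acid group.

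SESN1 encodes sestrin 1, which restrains the growth kinase mTORC1 and supports antioxidant defence. It was at 80.8, 70.6 and 77.2 CPM in oleic acid + FAC cells, at 81.5, 73.1 and 76.9 CPM in FAC cells, at 84.3, 80.2 and 70.5 CPM in oleic acid cells, and at 96.8, 82.6 and 86.2 CPM in vehicle cells. All 6 libraries given FAC lay below all 3 vehicle libraries. The log2 fold changes were -0.20 for FAC against vehicle (SE 0.11, edgeR adjusted p = 0.534) and -0.22 for oleic acid + FAC against vehicle (SE 0.11, edgeR adjusted p = 0.265), and neither was called.

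SESN1 has a start on either side of a long first intron. The upstream start held 27.9%, 20.4% and 15.3% of its counts in oleic acid + FAC cells, 30.3%, 26.6% and 19.2% in FAC cells, 21.9%, 15.9% and 13.6% in oleic acid cells, and 16.3%, 18.0% and 21.1% in vehicle cells. FAC and vehicle overlapped in this share. The averaged FAC effect was 0.26 for the upstream transcript SESN1-204 (SE 0.23, edgeR adjusted p = 0.880) and -0.22 for the downstream SESN1-202 (SE 0.09, edgeR adjusted p = 0.500). A full p53 decamer lies before a further start, that of SESN1-201, to which 0 counts were assigned in every library. It is RefSeq sequence (GRCh38.p14), minus strand, chr6:109009003-109009062, with the decamer in capitals.
SESN1: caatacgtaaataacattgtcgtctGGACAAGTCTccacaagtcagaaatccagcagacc
The match sits by a start that these libraries gave no counts, while the starts in use had none in their windows. It also lies downstream of the SESN1-202 start at 109009555, beyond that start's window, which ends at 109009503.

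Both DNA repair and supply genes stayed uncalled. XPC encodes the damage sensor of global nucleotide excision repair. It was at 30.0, 26.7 and 18.0 CPM in oleic acid + FAC cells, at 28.3, 41.7 and 31.5 CPM in FAC cells, at 38.9, 39.6 and 25.4 CPM in oleic acid cells, and at 33.0, 40.2 and 36.6 CPM in vehicle cells. Cells given both agents lay below vehicle without overlap, at a log2 fold change of -0.55 (SE 0.21, edgeR adjusted p = 0.159). The 2 lowest values of the 12 came from the third library of each group given oleic acid, those that read long genes low; the part this played was not tested. XPC shares 318 exonic bases with LSM3 on the opposite strand, which had 1393 to 2180 counts. With the strand setting not given, whether reads of the pair were fully told apart is not known.

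RRM2B encodes the p53-inducible small subunit of ribonucleotide reductase, which supplies deoxynucleotides outside S phase. It was at 39.7, 35.3 and 36.0 CPM in oleic acid + FAC cells, at 38.1, 35.2 and 38.1 CPM in FAC cells, at 39.8, 34.3 and 28.2 CPM in oleic acid cells, and at 38.7, 35.9 and 43.8 CPM in vehicle cells. All groups overlapped, and the averaged FAC effect was 0.01 (SE 0.09, edgeR adjusted p = 0.950).

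ZMAT3 encodes a zinc finger protein that binds RNA and steers splicing and stability of target mRNAs. It was at 62.4, 52.8 and 49.6 CPM in oleic acid + FAC cells, at 62.5, 58.5 and 53.4 CPM in FAC cells, at 74.7, 64.7 and 47.9 CPM in oleic acid cells, and at 72.0, 60.8 and 68.5 CPM in vehicle cells. The groups overlapped, and the averaged FAC effect was -0.20 (SE 0.11, edgeR adjusted p = 0.301).

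FDXR, ferredoxin reductase, passes electrons to ferredoxins, which carry an iron-sulfur cluster. It was at 25.7, 27.1 and 21.9 CPM in oleic acid + FAC cells, at 32.4, 19.7 and 26.4 CPM in FAC cells, at 25.2, 18.8 and 27.1 CPM in oleic acid cells, and at 33.9, 23.6 and 25.8 CPM in vehicle cells. All groups overlapped, and the averaged FAC effect was -0.01 (95% confidence interval -0.31 to 0.30, edgeR adjusted p = 0.985). Its first-start window held both a full decamer and a decamer pair with a spacer of 10 bases.

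Over the 10 members the median log2 fold change was -0.10 for FAC against vehicle and -0.06 for the averaged FAC effect, beside 0.0058 and 0.0045 over all tested genes. In FAC against vehicle 8 of 10 lay below 0, beside 49.0% of all genes, and for the averaged effect 6 of 10, beside 49.3%. The 3 FAC libraries and the 3 vehicle libraries did not overlap for BBC3, PHLDA3 and SESN1, 3 of 10 members beside 22.4% of all genes. Oleic acid + FAC and vehicle did not overlap for those 3 and XPC, 4 of 10 members beside 28.2%, and oleic acid + FAC and oleic acid for BBC3 and PHLDA3, 2 of 10 members beside 18.1%. The 6 libraries with FAC and the 6 without did not overlap for BBC3 and PHLDA3, 2 of 10 members beside 6.84% of all genes.

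Oleic acid alone called 0 of 10 members against vehicle, beside 0% of all genes by edgeR, with 0 of 10 also below an unadjusted p of 0.05 (0.830% of all genes), and 0 by DESeq2 or limma-voom. Oleic acid and vehicle libraries overlapped for all 10 members (3.60% of all genes did not overlap). The members' log2 fold changes ran from -0.23 for FDXR to 0.08 for BBC3. Adding oleic acid to FAC called 0 members beside 0% of all genes, and 0 were below an unadjusted p of 0.05 (4.05% of all genes), and 0 by DESeq2 or limma-voom. BBC3 was higher in all 3 oleic acid + FAC libraries than in all 3 FAC libraries, 1 of 10 members without overlap beside 10.5% of all genes, at a log2 fold change of 0.19 (95% confidence interval -0.17 to 0.54, edgeR adjusted p = 0.719). The test of whether oleic acid changed the FAC effect called 0 members beside 0% of all genes, with 0 below an unadjusted p of 0.05 (0.816% of all genes) and 0 by DESeq2 or limma-voom. For BBC3 that difference was 0.11 (95% confidence interval -0.39 to 0.61), and for PHLDA3 it was -0.11 (-0.68 to 0.46). The shares of 0.830% and 0.816% lie far below what an unadjusted p of 0.05 would pass with no effect at all. The main fit was thus strict here, for a reason that was not tested, and its 0 calls are weak evidence of no effect. With the replicate number as a block, each of these comparisons also called 0 of all tested genes.

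**Figure D4:**
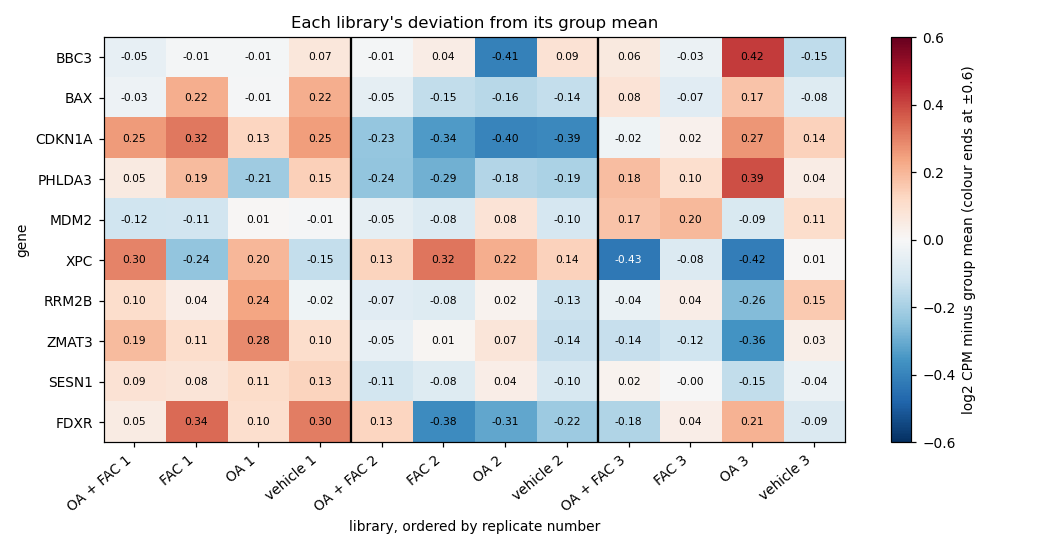
Each library's log2 CPM minus its group mean for the 10 genes, with libraries ordered by replicate number (OA, oleic acid). CDKN1A is below its group mean in all 4 second libraries, by 0.23 to 0.40, and XPC is low in the third library of the oleic acid + FAC (-0.43) and oleic acid (-0.42) groups.

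The wider p53 pathway was read through 7 lists with 90 further genes, of which 86 were tested. For the averaged FAC effect 8 were called, 5 higher and 3 lower, spread over 5 of the lists. That is 8 of 86 beside the 8.76% of all genes given above, and the 7 list medians lay between -0.18 and 0.24. Among 14 tested targets of cell death, 2 were called, in opposite directions. PMAIP1, which encodes NOXA, another BH3-only protein, was at 165.5, 173.1 and 225.7 CPM in oleic acid + FAC cells and at 147.1, 164.8 and 171.5 CPM in FAC cells. It was at 118.7, 129.0 and 117.7 CPM in oleic acid cells and at 131.1, 124.0 and 115.8 CPM in vehicle cells, so every library with FAC was above every library without. PMAIP1 rose by 0.50 (SE 0.09, edgeR adjusted p = 0.00436). FAS, a death receptor, was at 14.7, 12.8 and 15.5 CPM in oleic acid + FAC cells and at 14.6, 16.5 and 15.5 CPM in FAC cells. It was at 22.1, 20.2 and 18.5 CPM in oleic acid cells and at 23.7, 19.5 and 18.5 CPM in vehicle cells, again without overlap, and fell by 0.45 (SE 0.09, edgeR adjusted p = 0.0110). The list's median was -0.18.

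Among 9 tested targets of cell cycle arrest 2 were called, both higher, and the list's median was 0.24. TOB1, an antiproliferative regulator of mRNA deadenylation, was at 70.0, 89.6 and 117.2 CPM in oleic acid + FAC cells and at 82.9, 86.1 and 84.7 CPM in FAC cells. It was at 54.1, 54.7 and 58.9 CPM in oleic acid cells and at 57.0, 52.4 and 56.3 CPM in vehicle cells. No library with FAC overlapped those without, and TOB1 rose by 0.67 (SE 0.11, edgeR adjusted p = 0.00223). CCNG1, cyclin G1, rose by 0.36 (SE 0.09, edgeR adjusted p = 0.0302), though its ranges overlapped. Of 12 fits that left out 1 library 7 lost this call, with adjusted p up to 0.0895: without the first oleic acid or FAC library, the second oleic acid + FAC or vehicle library, or the third oleic acid + FAC, FAC or vehicle library. The 18 cell cycle genes listed as repressed through p21 and the DREAM complex had for the averaged FAC effect 0 called by edgeR, DESeq2 or limma-voom, 0 below an unadjusted p of 0.05 beside 23.5% of all genes, and a median of 0.03. Whether that repression works in HEK293, which carries adenoviral E1 genes, was not tested, so these values are not a readout of p21. BUB1, a spindle checkpoint kinase, and MKI67, the proliferation marker, had averaged FAC effects of -0.06 (edgeR adjusted p = 0.814) and 0.03 (edgeR adjusted p = 0.951). In oleic acid + FAC cells against FAC cells they stood at -0.38 and -0.55, neither called (edgeR adjusted p = 0.707 for each).

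Of 12 tested targets in metabolism and redox defence 2 were called, both higher, with a list median of 0.05. SAT1, which acetylates polyamines for breakdown and has been tied to ferroptosis, was at 32.1, 48.2 and 60.2 CPM in oleic acid + FAC cells and at 39.3, 61.4 and 42.9 CPM in FAC cells. It was at 25.1, 27.5 and 30.0 CPM in oleic acid cells and at 19.7, 28.4 and 24.8 CPM in vehicle cells, without overlap between libraries with and without FAC. SAT1 rose by 0.87 (SE 0.16, edgeR adjusted p = 0.00510). PANK1, a pantothenate kinase of coenzyme A synthesis, rose by 0.38 (SE 0.10, edgeR adjusted p = 0.0347), and 9 of 12 fits without 1 library lost the call, with adjusted p up to 0.0974. It held without the third oleic acid + FAC, FAC or oleic acid library. In single comparisons TOB1 and PMAIP1 were also called for oleic acid + FAC against oleic acid (0.72 and 0.63, edgeR adjusted p = 0.0277 and 0.0246) and against vehicle (0.74 and 0.61, 0.0216 and 0.0247), and SAT1 against vehicle (0.94, 0.0417). Against oleic acid both calls were lost without the second or the third oleic acid + FAC library, or the first or the second given oleic acid alone, and TOB1's also without the third vehicle library, with adjusted p up to 0.115. Against vehicle both were lost without the second or the third vehicle or oleic acid + FAC library, and TOB1's also without the first vehicle library, with adjusted p up to 0.132. SAT1's was lost in 9 of 12 such fits, with adjusted p up to 0.159, and held without the first oleic acid + FAC, the second FAC or the third oleic acid library. It was also lost without the third library of both groups given oleic acid (0.72, adjusted p = 0.0646), with the length trend removed (0.62, adjusted p = 0.106) and by limma-voom (adjusted p = 0.0561). When only the 2 groups compared were fitted, all 5 of these calls were lost: adjusted p was 0.229 for TOB1 and 0.197 for PMAIP1 against oleic acid, and 0.0770 for TOB1, 0.0763 for PMAIP1 and 0.0775 for SAT1 against vehicle. With the replicate number as a block, SAT1, CCNG1 and FAS were called against oleic acid too (0.73, 0.52 and -0.50, adjusted p = 0.0246, 0.0352 and 0.0432). SAT1 and TOB1 were not called for FAC against vehicle in the main fit, nor by limma-voom. With the block they were (0.98 and 0.62, edgeR adjusted p = 0.00901 and 0.0312), and by DESeq2 (adjusted p = 0.00314 and 0.00843). Fitting only those groups (adjusted p = 0.0212 and 0.00877) or removing the length trend (0.0329 and 0.00965) also called both.

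Of 6 tested repair targets 1 was called. FBXO22, an F-box protein of a ubiquitin ligase, fell by 0.34 (SE 0.10, edgeR adjusted p = 0.0443), and 11 of 12 fits without 1 library lost the call, with adjusted p up to 0.113. It held without the third oleic acid + FAC library. With the replicate number as a block, FBXO22 was also called for FAC against vehicle (-0.45, edgeR adjusted p = 0.0363). Of 13 tested regulators 1 was called. TP73, a relative of p53 that binds the same sites, was at 20.2, 21.2 and 19.9 CPM in oleic acid + FAC cells and at 23.1, 16.1 and 17.5 CPM in FAC cells. It was at 30.9, 24.4 and 24.1 CPM in oleic acid cells and at 32.7, 27.6 and 25.5 CPM in vehicle cells. The highest FAC library, at 23.1 CPM, was below the lowest library without it, at 24.1 CPM, and TP73 fell by 0.48 (SE 0.11, edgeR adjusted p = 0.0169), a call lost without the third FAC library (adjusted p = 0.0518, in a range of 0.00212 to 0.0518). For FAC against vehicle the block called TP73 (-0.60, edgeR adjusted p = 0.0185), as did DESeq2 (-0.58, adjusted p = 0.0259), while the main fit did not. The 14 tested targets of mixed role had 0 called by edgeR or limma-voom for the averaged FAC effect, 1 by DESeq2, and 4 of 14 below an unadjusted p of 0.05, near the 23.5% of all genes, IER5 being nearest at 0.37 (adjusted p = 0.0761) and CES2 next at -0.29 (adjusted p = 0.125).

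**Figure D5:**
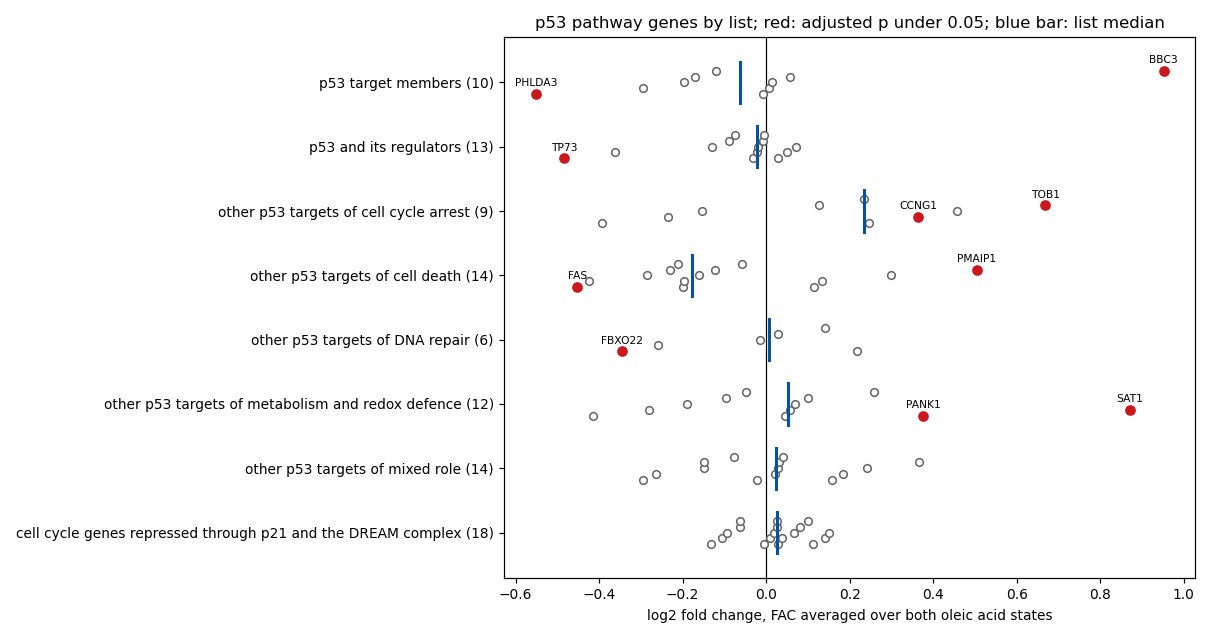
Log2 fold change of FAC averaged over both oleic acid states for the 10 members and the 86 other tested p53 pathway genes, one row a list with its number tested, a blue bar at the list median and red points at an adjusted p under 0.05. BBC3 and SAT1 lie furthest right at 0.95 and 0.87, PHLDA3 furthest left at -0.55, and the 18 cell cycle genes listed as repressed through p21 cluster around 0.03.

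Likeness of pattern was measured as the root-mean-square difference in log2 CPM over the 12 libraries, each gene centred on its own mean, among 12325 genes. The genes nearest to CDKN1A were CSRNP1 at 0.14, AIFM2 at 0.15 and USP11 at 0.15. Those nearest to MDM2 were EIF4G2, DCTN4 and PAPOLA, at 0.06, 0.06 and 0.07. BBC3 and PHLDA3 were added to this search after their values were seen. Nearest to BBC3 were HIST3H2A at 0.16, MVP at 0.17 and HIST2H2BD at 0.19, and nearest to PHLDA3 were COMMD5 at 0.10, HGH1 at 0.11 and TRIM21 at 0.12. No other member was among the 3 nearest to any of these 4 genes.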

How the data were processed

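Poly-A libraries were made with Illumina TruSeq chemistry, per the labels' protocols. The deposited values are estimated counts per gene and per transcript as the authors made them. Tools and build are kallisto 0.46.1, bcl2fastq 2.19, sleuth 0.30.0 and GRCh38.p12, per the submitters' processing notes. Groups came from sample titles. Nothing says that replicates came from separate cultures, so each p-value describes only how far these libraries vary, which may be technical. Same-numbered libraries deviated together with r of at least 0.1 in every pair among the 3 groups given FAC, oleic acid or both (0.17 to 0.61 over 9 pairs), which is taken as pairing from the data and not from the labels. With vehicle they did so in some pairs and not in others (-0.07 to 0.30). The fit with the number as a block is an alternative, given beside some of the results it changes. All 3 replicates of a group differed beyond sampling noise. Counts were rounded and fitted over all 12 libraries with edgeR 4.0.16 in R 4.3.3 (quasi-likelihood test, TMM scaling, default filter on low counts, Benjamini-Hochberg adjustment over 14209 genes, 8 comparisons), after tests on simulated data. Log2 CPM used a prior count of 2. TPM used GENCODE 29 transcript lengths. Promoter sequences are RefSeq's, GRCh38.p14, with windows for 8 members. Alternatives were DESeq2 1.42.0, limma-voom (limma 3.58.1), other scalings, no filter, a replicate block, a length correction and left-out libraries. The members and lists were chosen with earlier results of these data known. Named genes are the 10 members, genes past the test in each wider list (at most 6; otherwise the 2 with the smallest p), and the 3 likest CDKN1A and MDM2. A gene that this rule also names is not reported here.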

Additional observations from a re-analysis of the deposited data

How the results depend on the processing

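For the members called, leaving out 1 library gave 0 to 1 for FAC against vehicle (1 as reported), 0 to 1 for oleic acid + FAC against oleic acid (1 as reported), 0 to 2 for oleic acid + FAC against vehicle (1 as reported) and 1 to 2 for the averaged FAC effect (2 as reported). Without the third library of both groups given oleic acid, oleic acid + FAC against vehicle called 2, BBC3 and PHLDA3. Fitting only the groups compared called 0 for oleic acid + FAC against oleic acid. Removing each library's trend with transcript length called 2 in that comparison and 2 in oleic acid + FAC against vehicle. Both additions were PHLDA3. The labels do not say what a replicate number marks. Same-numbered libraries deviated together among the 3 treated groups but not throughout with vehicle, and 11 of 12 libraries correlated best with their own number. With the replicate number as a block, 2 members were called for oleic acid + FAC against oleic acid and 2 against vehicle, the second in each being PHLDA3. With the block and the length correction together, an alternative chosen after seeing the data, 2 were called for FAC against vehicle, 2 for oleic acid + FAC against oleic acid and 4 for oleic acid + FAC against vehicle. Over all 14209 tested genes that fit called 1120, 1979 and 2475 in these comparisons. In the last of them BAX reversed to -0.25 (edgeR adjusted p = 0.0341), and the cause was not tested. For member transcripts, the averaged FAC effect called 0 without the filter and 0 to 1 without 1 library (1 as reported). Oleic acid + FAC against oleic acid called 0 to 1 without 1 library and 1 without the third libraries of both groups, and oleic acid + FAC against vehicle called 1 without both (0 as reported in each). The median log2 fold change of the members shifted by no more than 0.093 in every alternative run. That bound is the pooled SD between replicates of the members' median log2 CPM. It is larger in size than the averaged FAC median of -0.06, so this bound alone does not show that the direction of that median is stable. Over 184 results for single genes and transcripts, 3789 of 3979 alternatives kept direction and side of the threshold, 78 lost a call, 79 gained one, 1 reversed and 32 uncalled values changed sign by more than 1 SE. Over all tested genes DESeq2 called 498 for FAC against vehicle, 761 for oleic acid + FAC against oleic acid and 1261 for oleic acid + FAC against vehicle, where edgeR called 169, 314 and 436. The block called 431, 740 and 1528 there, and 2211 for the averaged FAC effect (1244 as reported). Over all alternatives these 4 counts ran from 27 to 1120, 19 to 1979, 62 to 2475 and 738 to 3739. With 3 libraries a group, the interval or SE beside each value gives its precision.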
